A study of Mus musculus with 41 samples.

Results

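The genes described here encode the proteins of the cytosolic ribosome in mouse bone. They were taken as the protein-coding rows of the count table whose symbol is Rpl or Rps with a number, plus Rpsa, Rplp0, Rplp1 and Rplp2, which gave 84 genes of the 43346 rows in the table. Of these, 51 belong to the large subunit (Rpl) and 33 to the small subunit (Rps). The libraries came from tibial diaphyses of female p16-INK-ATTAC mice on a C57BL/6 background, and the mice of every group carry the same drug-activated suicide transgene under the p16Ink4a promoter, so it acts only in cells that use that promoter. The young group held 12 mice labelled 6 to 12 months old, which the labels also list as vehicle-treated. The old + vehicle-treated group held 13 mice and the old + AP-treated group 16 mice, all 20 months old at the start of a 4-month treatment, with 10 mg per kg of AP20187 (AP) in the second of these groups. AP20187 dimerizes the transgene product and is used to clear cells that express p16Ink4a. The tibiae were spun to remove marrow before RNA extraction, and each library is 1 mouse, named here by its mouse number.

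A ribosome holds 1 copy of nearly every ribosomal protein, so their genes are known to be expressed together. Their mRNAs start with a run of pyrimidines, the TOP motif, through which mTORC1 and Larp1 regulate translation, and several of the proteins have a second gene, or paralog, with a tissue-specific pattern. The mouse genome also holds many processed pseudogenes of these mRNAs, copies without introns whose sequence can be nearly identical to the parent mRNA.

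Library totals ranged from 37029000 to 75942700 counts (to 6 digits), and the ribosomal protein genes took 1.87% to 3.40% of them. Counts of all genes were fitted together with edgeR's quasi-likelihood test, and adjusted p-values are Benjamini-Hochberg values over the 19292 genes kept by the filter on low counts. Levels are given as counts-per-million (CPM) values on library totals scaled by the trimmed mean of M-values (TMM). Bone markers were present in every mouse. The summed level of 5 osteoblast markers was 14529 to 40076 CPM in young, 6891 to 39730 CPM in old vehicle-treated and 2995 to 32130 CPM in old AP-treated mice, and that of 10 skeletal muscle markers was 17818 to 100864, 15943 to 131494 and 8446 to 100385 CPM, with none of these genes at 0 in all mice. With age in vehicle-treated mice, 2 of 10 muscle markers were higher, and 5 of 7 B cell, 2 of 5 erythroid and 2 of 5 osteoblast markers were lower. Of 5 osteocyte markers 2 were higher and 1 lower, of 4 adipocyte markers 1 was higher and 1 lower, 1 of 4 endothelial markers was higher, 1 of 3 macrophage markers was lower, and 0 neutrophil, T cell or cycling cell markers passed. In old AP-treated against young mice, 4 of 5 osteoblast, 1 of 7 B cell, 1 of 5 erythroid, 1 of 5 osteocyte and 1 of 4 adipocyte markers were lower, and 2 of 4 T cell, 2 of 8 neutrophil and 2 of 5 osteocyte markers were higher. No marker of any list passed between the old groups, and the part of cell mixture in the results was not tested except where stated. In whole tissue, fewer cells of a type cannot be told apart from less RNA per cell.

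Of the 84 genes, 83 passed the filter. Rpl10l, the autosomal paralog of X-linked Rpl10 that is known from testis, had 0 counts in all 41 mice, and 3 counts would correspond to between 0.0395 and 0.0810 CPM depending on the library. Compared per length (CPM per kilobase of the exon length in the table, mean of 41 mice), the highest levels included those of Rps27 at 1227, Rplp1 at 996, Rps12 at 827 and Rpl32 at 692. The lowest were Rps4l at 5.77, Rpl39l at 6.38, Rpl7l1 at 27.2, Rpl22l1 at 31.3 and Rps15a at 44.2 CPM per kilobase. Of these 5, Rps15a is not a paralog form, and its exon length in the table is 6262 bases. When the length of 1 annotated transcript replaced the table's length, Rps27 and Rplp1 stayed among the highest 5 and Rps12 and Rpl32 did not, and 3 of the lowest 5 were shared.

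The levels of Rpl37a and Rpl26 fell into separate ranges across mice, with a pseudogene copy higher where the parent was low. Of the members, 75 had at least 1 pseudogene row with at least 95% identity over at least 100 bases, 425 rows in all, and these rows held 6.92% to 8.35% of the counts of members plus copies in each mouse. Rpl37a, a zinc-finger protein of the large subunit (chr1:72711260-72713809), had the widest gap between neighbouring mice of the tested members, with at least 5 mice required on each side. Its level was between 89.2 and 123 CPM in 16 mice and between 183 and 287 CPM in the other 25. Its copy Gm4149 on chromosome 13 matched it over 276 bases with 1 mismatch. Gm4149 was at 134 to 215 CPM in the 16 mice with low Rpl37a and at 49.1 to 75.5 CPM in the 25 with high Rpl37a. The copy's share of the pair's counts was thus 60.1% to 63.6% in the first set and 19.3% to 22.1% in the second, with no mouse between. The 16 mice included 5 of the young mice, 3 of the vehicle-treated old mice and 8 of the AP-treated old mice, so every group held both levels.

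Rpl26, which lies near the exit of the peptide tunnel (chr11:68901583-68906989), showed the same kind of split, but along age. Rpl26 was at 190 to 275 CPM in 8 young mice and at 322 to 414 CPM in the other 4 young mice and all 29 old mice. Its copy Gm15772 on chromosome 5 matched the 438-base coding sequence with 2 mismatches. It was at 113 to 152 CPM in those 8 young mice (mouse numbers 30, 32, 34, 35, 36, 37, 40 and 41) and at 17.05 to 28.8 CPM in the other 33. The copy's share of the pair was 35.5% to 37.2% in the 8 mice and 4.84% to 6.69% in the others. Only 2 mice were on the low side for both Rpl26 and Rpl37a. A gap in level alone is not particular to these genes: between neighbouring mice it was 0.58 on the log2 scale for Rpl37a and 0.22 for Rpl26, beside 0.34 for Rps4l, 0.27 for Rpl3l, 0.22 for Rplp1 and 0.21 for Rpl35a, which was at 134 to 153 CPM in 5 mice and at 178 to 261 CPM in the other 36.

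The stretches below hold the differences between parent and copy within the matched bases. They are 29-base windows of the GENCODE M21 transcripts on GRCm38, all on the + strand, and the capital marks the base at which parent and copy differ. Positions count from 1 at the first base of the parent's coding sequence, with the parent's base written first: C177T and T288C for Rpl26 and T198C for Rpl37a.
Rpl26 at C177T, chr11:68902437-68903201, across an intron: gttcaggttgttcgCggacactacaaagg
Gm15772 at C177T, chr5:3236593-3236621: gttcaggttgttcgTggacactacaaagg
Rpl26 at T288C, chr11:68903284-68903312: ggcacaaccgtccaTgtgggcatccaccc
Gm15772 at T288C, chr5:3236704-3236732: ggcacaaccgtccaCgtgggcatccaccc
Rpl37a at T198C, chr1:72712193-72712221: aaaacagtggccggTggggcctggaccta
Gm4149 at T198C, chr13:75645079-75645107: aaaacagtggccggCggggcctggaccta
The bases that each mouse carried at these positions were not analysed here, since the counts hold no sequence, and their part in the split was not tested.

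**Figure D1:**
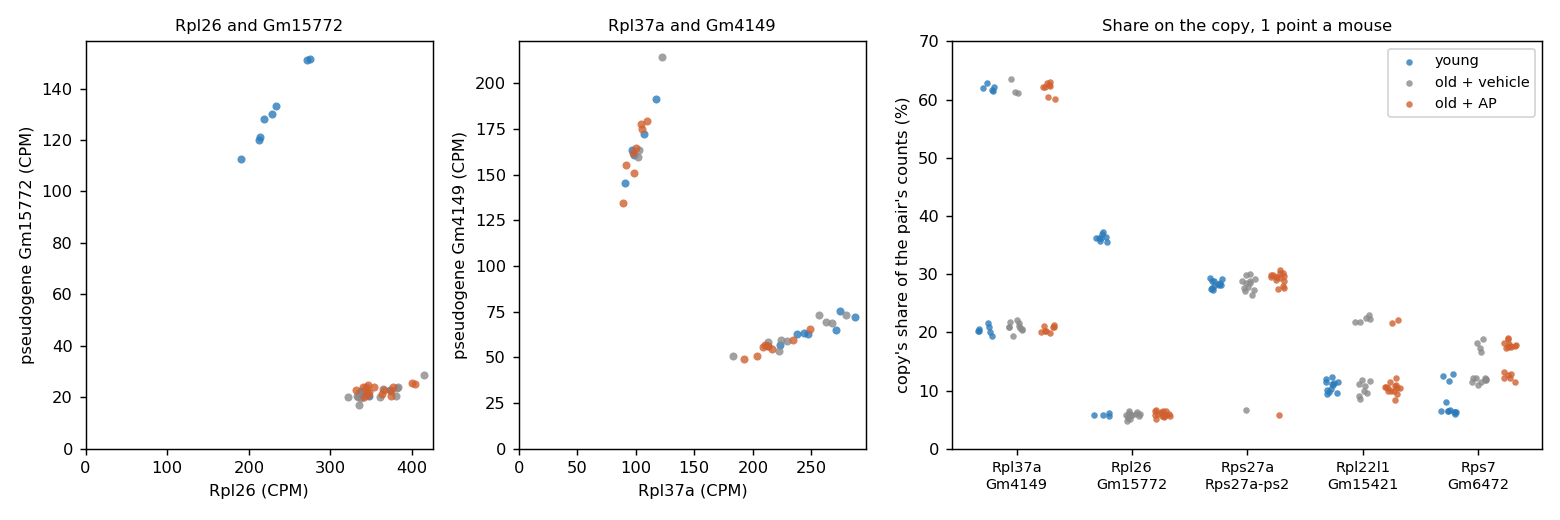
Left and middle: level of the pseudogene copy (y axis, CPM) against its parent gene (x axis, CPM) for Rpl26 with Gm15772 and Rpl37a with Gm4149, 1 point for each of 41 mice, coloured by group. Right: the copy's share of the counts of parent plus copy (y axis, percent) for the 5 pairs with the widest range, where each pair falls into separate ranges, and the 8 high points of Rpl26 are all young mice.

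Among the other pairs, the copy's share had the next widest range for Rps27a with Rps27a-ps2, Rpl22l1 with Gm15421 and Rps7 with Gm6472. Rps27a encodes a ubiquitin-ribosomal protein fusion, and its copy took 5.74% and 6.58% of the pair in mice 26 and 14 but 26.4% to 30.7% in the other 39. For Rpl22l1 the copy took 21.6% to 22.98% in 7 old mice and 8.42% to 12.4% in all others. For Rps7, whose protein is also known to bind Mdm2, the shares fell into 3 ranges. The share was 6.04% to 7.96% in 9 mice, all young. It was 11.02% to 13.2% in 3 of the young, 9 of the vehicle-treated old and 6 of the AP-treated old mice, and 16.7% to 19.1% in 4 old + vehicle-treated and 10 old + AP-treated mice. The median level of Rps7 itself in these 3 ranges was 293, 259 and 215 CPM. The copy shares of Rpl26 and Rps7 thus differed between young and old mice, although 4 young mice had the Rpl26 range of the old mice. The high Rpl22l1 share was also found in old mice alone (5 with vehicle, 2 with AP). For genes whose age result moved with the copies' counts, values with those counts added are given below.

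Aging in the vehicle-treated mice moved few ribosomal protein genes. Comparing old + vehicle-treated with young mice, 4 of 83 genes passed an adjusted p of 0.05 (1 higher, 3 lower), against 19.4% of all genes tested. With a log2 fold change over 0.5 as well, the rule of the study, 1 gene was called, Rps4l, against 9.06% of all genes. The 83 genes had a median log2 fold change of -0.02, and all genes tested had 0.01. All but 5 of the 83 lay within 0.25 of zero on the log2 scale. The large and small subunits had like medians, -0.02 for 50 tested large-subunit genes and -0.01 for 33 small-subunit genes.

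Rpl26 was the gene higher in old + vehicle-treated mice. Its lowest, median and highest levels were 190, 253 and 372 CPM in young mice and 322, 344 and 414 CPM in old + vehicle-treated mice. All 13 old mice were above the young median, but the groups overlapped, and the log2 fold change was 0.40 ± 0.08 (SE, adjusted p = 0.000662, edgeR). With the copies' counts added, the fold change fell to 0.05 ± 0.05 (adjusted p = 0.584). The sum of Rpl26 and Gm15772 was 303 to 427 CPM in young and 342 to 443 CPM in old + vehicle-treated mice, and these ranges overlap over most of their width.

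Of the 3 lower genes, Rps7 kept its direction but not its place past the threshold with copies added. It was at 255, 291 and 317 CPM (lowest, median, highest) in young and at 196, 254 and 310 CPM in vehicle-treated old mice (log2 fold change -0.23 ± 0.08, adjusted p = 0.0268). With the copies added, this was -0.15 ± 0.07 (adjusted p = 0.145). Rpl39, a small X-linked protein that lines the peptide tunnel (chrX:37082520-37085402), was at 161, 183 and 229 CPM in young and at 138, 151 and 204 CPM in old + vehicle-treated mice. Of the 13 old mice, 7 were below every young mouse. Its log2 fold change of -0.21 ± 0.07 (adjusted p = 0.0203) stayed at -0.22 ± 0.07 (adjusted p = 0.0189) with copies added.

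Rps4l was the only called gene and had the lowest level per length of the tested members (chr6:148354656-148355598). It was at 5.05, 7.24 and 13.2 CPM in young and at 1.78, 4.59 and 8.85 CPM in old + vehicle-treated mice. Its log2 fold change was -0.64 ± 0.23 (adjusted p = 0.0454), with 7 of 13 old mice below every young mouse. The call was held in 23 of the 41 fits that left out 1 mouse, with adjusted p between 0.0222 and 0.0976 (lost without mice 1, 2, 4, 5, 13, 14, 17, 20, 21, 22, 23, 30, 32, 33, 38, 39, 40 or 41). Rps4l lies inside Tmtc1, which has 12.4 times its counts, and Tmtc1 had a log2 fold change of 0.39 ± 0.23 in the opposite direction (adjusted p = 0.249). The table lists Rps4l as protein-coding, whereas GENCODE M21 types its transcripts as a processed transcript and a transcribed processed pseudogene.

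**Figure D2:**
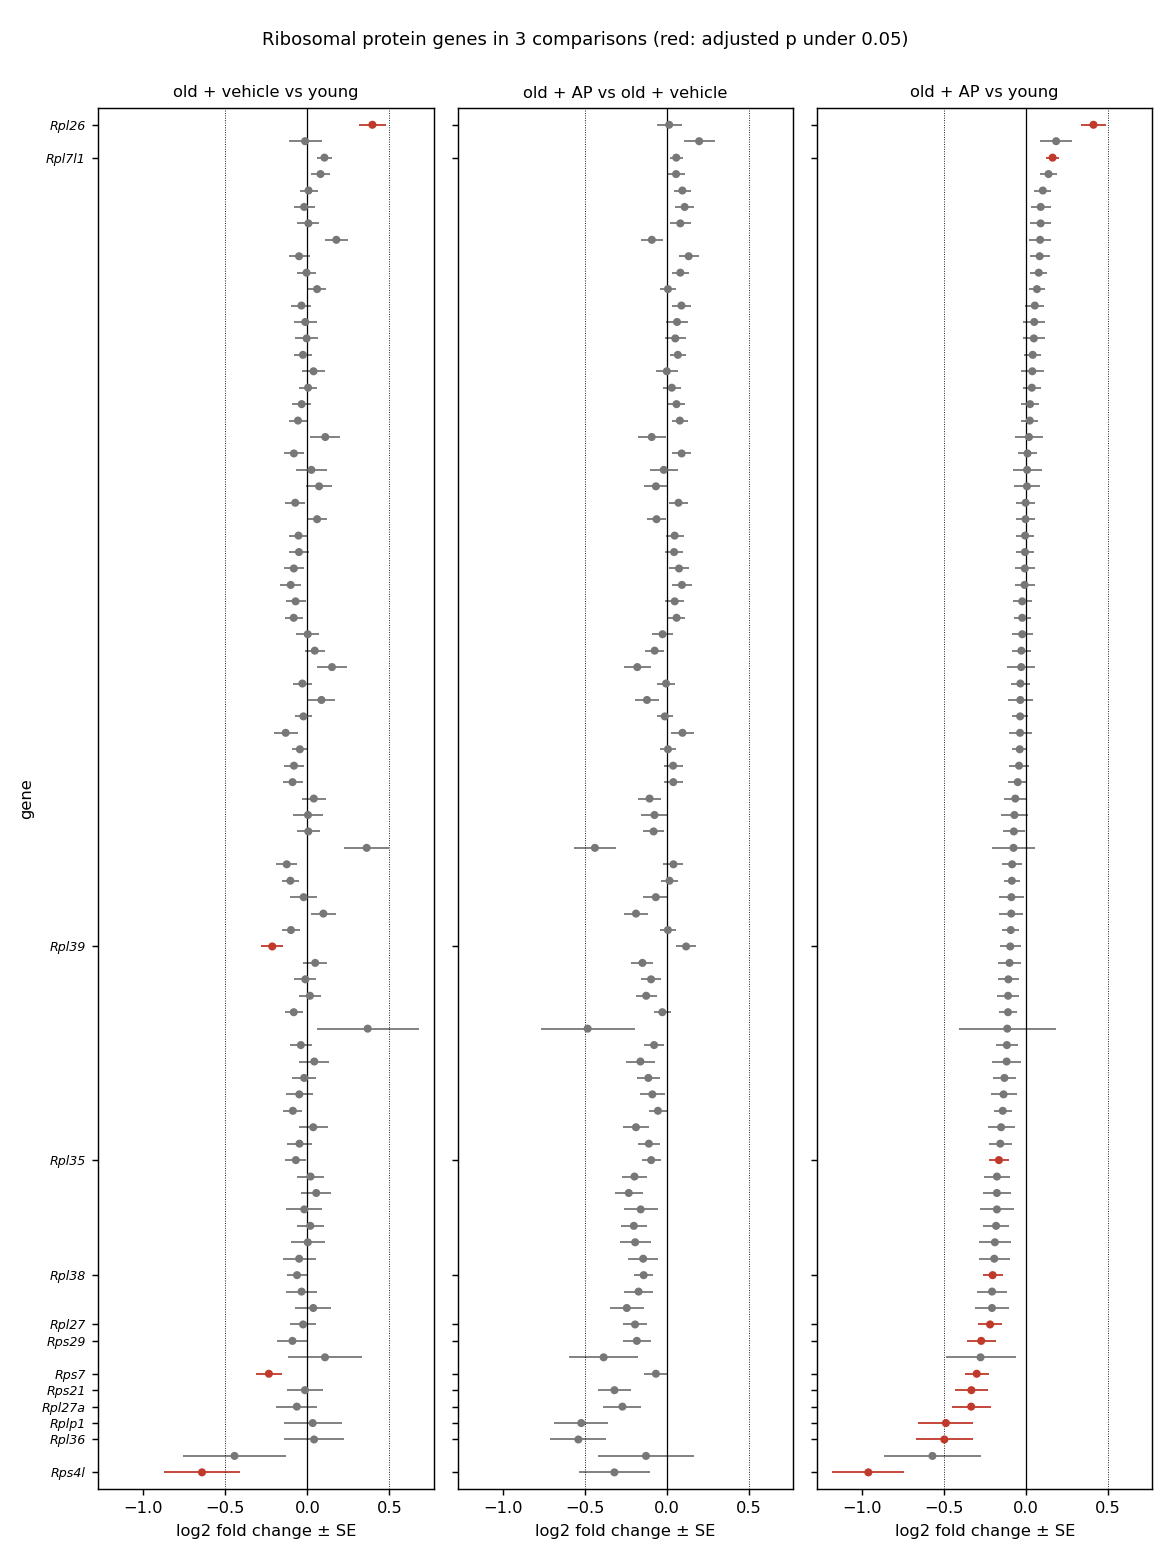
Log2 fold change ± SE (x axis) of the 83 tested ribosomal protein genes (y axis, with names for genes past the threshold in any comparison) in the 3 comparisons, ordered by old + AP-treated against young, with red for an adjusted p under 0.05 and dotted lines at ±0.5. Most genes sit within 0.25 of zero, Rpl26 is highest in both comparisons with young mice, and no gene is red between the treated and vehicle-treated old mice.

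Treatment of old mice moved no ribosomal protein gene past the adjusted threshold. Between the AP-treated and the vehicle-treated old mice, 0 of 83 genes passed the adjusted p with edgeR, against 0.171% of all genes (0.0726% with the fold change rule). This background is 33 genes and moved with single mice, from 0 in several fits that left out 1 mouse to 1214 genes without mouse 2 and 1600 without mouse 9. At an unadjusted p under 0.05 there were 18 (2 higher, 16 lower), which is 21.7% of the 83 beside 23.9% of all genes tested. DESeq2 gave 4 of the 83 genes past its adjusted p, all lower, beside 951 of all genes. For the ribosomal set the median log2 fold change was -0.07, beside -0.00 for all genes. With library totals in place of TMM these medians were 0.04 and 0.10, so the sign of the ribosomal median turned with the scaling, while it stayed below that of all genes.

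The lowest genes in this comparison were Rpl36 at -0.54 ± 0.17 and the stalk protein gene Rplp1 at -0.52 ± 0.16 (both adjusted p = 0.0761, edgeR). Rplp1 was at 252, 561 and 801 CPM in old + vehicle-treated mice and at 198, 391.8 and 562 CPM after AP. Of the 16 treated mice, 15 were below the vehicle median, but 15 were also inside the vehicle range. Rplp2, the partner of Rplp1 in the stalk that recruits elongation factors, was at 135, 229 and 381 CPM with vehicle and at 128, 187 and 241 CPM with AP (log2 fold change -0.44 ± 0.13, adjusted p = 0.0630). Rpl3l had a fold change of -0.48 ± 0.29 (adjusted p = 0.300). Rpl37a was at -0.38 ± 0.21 (adjusted p = 0.2497), and with copies added at -0.14 ± 0.06 (adjusted p = 0.158). The highest gene was Rpl3, at the peptidyl transferase centre, with 0.20 ± 0.09 (adjusted p = 0.192).

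Leaving out single mice took some of these genes past the adjusted p. Rplp1 passed the adjusted threshold without mouse 2, 9 or 20, Rpl36 without mouse 2 or 9, and Rplp2 and Rps21 without mouse 2, 9, 10 or 20. With age in vehicle-treated mice, Rplp2 passed without mouse 2, 20, 21, 22, 32 or 40. Over all 41 such fits the adjusted p ran from 0.0332 to 0.156 for Rplp1, from 0.0319 to 0.159 for Rpl36 and from 0.0290 to 0.127 for Rplp2. The 10 skeletal muscle markers, none of which passed here, had a median of -0.45 in the same comparison. The erythroid, cycling cell, B cell and T cell lists had medians of 0.55, 0.47, 0.46 and 0.43, also with 0 markers past the threshold, and their part in these values was not tested.

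With TMM scaling, most ribosomal protein genes past the adjusted p in AP-treated old mice against young mice were lower, which turned with library totals. With edgeR, 12 of 83 genes passed the adjusted p (2 higher, 10 lower), 14.5% beside 17.8% of all genes tested. With the fold change rule 1 gene was called, Rps4l, beside 8.58% of all genes. The median log2 fold change was -0.07 against 0.02 for all genes, and 60 of the 83 genes were below zero. Both old groups were compared with the same 12 young mice. With the copies' counts added, 9 genes passed (1 higher, 8 lower), beside 3371 of all genes. With library totals in place of TMM only 4 passed, and most of these were higher (3 higher, 1 lower), while 3024 of all genes passed. Leaving out 1 mouse gave 6 to 12, beside 2840 to 4053 of all genes.

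Rps4l was lower at 1.36, 4.06 and 7.35 CPM after AP (log2 fold change -0.96 ± 0.22, adjusted p = 0.00220), and 12 of 16 mice were below every young mouse. This held in all 41 fits that left out 1 mouse. Tmtc1, in which it lies, was at 0.19 ± 0.22 (adjusted p = 0.581). Rpl26 rose by 0.41 ± 0.08 (adjusted p = 0.000366) but by 0.06 ± 0.05 with copies added (adjusted p = 0.404). Rps7 was at 181, 229 and 331 CPM, a log2 fold change of -0.30 ± 0.07 (adjusted p = 0.00390), and at -0.18 ± 0.07 with copies added (adjusted p = 0.0627).

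Rpl7l1, a paralog of Rpl7 that is known to act in ribosome assembly, rose by 0.16 ± 0.04 (adjusted p = 0.00579). It was at 60.9, 65.2 and 75.7 CPM in young and at 67.0, 73.6 and 82.4 CPM in old + AP-treated mice, and all 16 treated mice were above the young median. Rpl36 was at -0.50 ± 0.17 (adjusted p = 0.0422), Rplp1 at -0.49 ± 0.17 (adjusted p = 0.0385) and Rpl27a at -0.33 ± 0.12 (adjusted p = 0.0436). None of these 3 passed the fold change rule. They stayed past the adjusted p in 28, 30 and 26 of the 41 fits that left out 1 mouse, and all 3 missed it without any one of mice 3, 11, 19, 26, 28, 30, 31, 32, 38 or 40. With copies added, Rpl27a was at -0.28 ± 0.10 (adjusted p = 0.0515). Rpl38, whose protein is known from patterning of the axial skeleton, was at -0.20 ± 0.06 (adjusted p = 0.0163), and at -0.17 ± 0.06 with copies added (adjusted p = 0.0441). The other 4 genes past the threshold, named after their values were seen, were Rps21 at -0.33 (adjusted p = 0.0202), Rps29 at -0.27 (adjusted p = 0.0287), Rpl27 at -0.22 (adjusted p = 0.0339) and Rpl35 at -0.17 (adjusted p = 0.0494). Rps21 passed in all 41 fits that left out 1 mouse, Rps29 in 39 (not without mouse 32 or 40), Rpl27 in 35 (not without mouse 3, 11, 30, 32, 37 or 40) and Rpl35 in only 16.

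Of 14 genes whose proteins are known for other roles, 0 passed the adjusted p in old + vehicle-treated against young mice (19.4% of all genes) and 0 between the old groups (0.171%). In old + AP-treated against young mice, 2 (Rplp1 and Rpl38) were lower, beside 17.8% of all genes in either direction. The list leaves out Rps7, although its protein is known to bind Mdm2, and it also leaves out Rpl26. Both genes passed in both comparisons with young mice, but neither did with the copies' counts added. Rpl5 and Rpl11, which bind Mdm2 when ribosome assembly fails, had log2 fold changes with age in vehicle-treated mice of 0.01 ± 0.06 and -0.03 ± 0.06. Rpl11 was at 209, 235.5 and 250.5 CPM in young, 189, 223 and 277 CPM in vehicle-treated old and 185, 227 and 271 CPM in AP-treated old mice, and the young range lay inside both of the others. Rps6, the substrate of S6 kinase, was at 0.01 ± 0.07 with age and at 0.08 ± 0.06 with treatment. Rpsa, also known as the laminin receptor, was at 0.07 ± 0.08 and -0.07 ± 0.08, and Rplp0, the base of the stalk and a common reference gene, was at 0.09 ± 0.08 and -0.12 ± 0.08.

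Ratios between paralogs hardly depend on library scaling and were compared for 7 pairs in 3 comparisons, by a two-sided permutation test with adjustment over all 21 tests. Of the 21, 7 passed, and 7 passed with the copies' counts added. Rplp1 and Rplp2, which form the P1-P2 heterodimers of the stalk, gave the clearest difference. The log2 ratio of Rplp1 to Rplp2 was between 1.05 and 1.74 (median 1.52) in young, between 0.80 and 1.49 (median 1.11) in old + vehicle-treated and between 0.64 and 1.30 (median 1.07) in old + AP-treated mice. All 13 and all 16 old mice were below the young median. The mean ratio was lower by 0.34 ± 0.08 (SE) on the log2 scale in old + vehicle-treated than in young mice (permutation adjusted p = 0.00299). In old + AP-treated mice it was lower by 0.43 ± 0.08 (permutation adjusted p = 0.000420). The old groups differed by -0.09 ± 0.07 (permutation adjusted p = 0.264). Both differences from young mice held in all 41 repeats that left out 1 mouse. They share the same young mice, and in the second age and AP treatment differ together. Rplp1 alone did not pass with age in vehicle-treated mice (0.03 ± 0.17 in log2 fold change) and Rplp2 was at 0.36 ± 0.14 (edgeR adjusted p = 0.0590).

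The ratio of Rpl7 to Rpl7l1 was also lower in old mice. Its median log2 value was 3.07 in young, 2.95 in old + vehicle-treated and 2.95 in old + AP-treated mice. The difference from young mice was -0.16 ± 0.04 with vehicle (permutation adjusted p = 0.00592) and -0.14 ± 0.03 with AP (permutation adjusted p = 0.00299). Of the old mice, 8 of 13 and 13 of 16 were below every young mouse. The ratio of Rps4x to Rps4l was higher by 0.64 ± 0.23 with vehicle (permutation adjusted p = 0.0289, and up to 0.0613 with 1 mouse left out) and by 1.10 ± 0.24 with AP (permutation adjusted p = 0.00220).

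Rps27l, a p53 target that is a paralog of Rps27, gave the only ratio that differed between the old groups. The log2 ratio of Rps27 to Rps27l had medians of 2.47 in young, 2.30 in vehicle-treated old and 2.54 in AP-treated old mice. Treated mice were higher than vehicle-treated mice by 0.24 ± 0.08 (permutation adjusted p = 0.0228), with 13 of 16 above the vehicle median and adjusted p up to 0.0488 with 1 mouse left out. Rps27l itself was at 52.0, 57.8 and 78.4 CPM with vehicle and at 42.8, 51.7 and 67.4 CPM with AP, a log2 fold change of -0.20 ± 0.08 that did not pass (edgeR adjusted p = 0.124).

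The remaining pairs did not pass in any comparison with all mice. The ratio of Rpl39 to Rpl39l differed by 0.75 ± 0.30 between old + AP-treated and young mice (permutation adjusted p = 0.0760). Rpl39l, known mainly from male germ cells, spread much more widely in old mice, at 1.51 to 14.5 CPM with vehicle and 0.697 to 12.6 CPM with AP, than in young mice, at 5.28 to 8.92 CPM. The spread was not tested. The ratio of Rpl22 to Rpl22l1 differed by 0.11 ± 0.06 with age (permutation adjusted p = 0.141), and by 0.04 when the copies' counts were added.

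**Figure D3:**
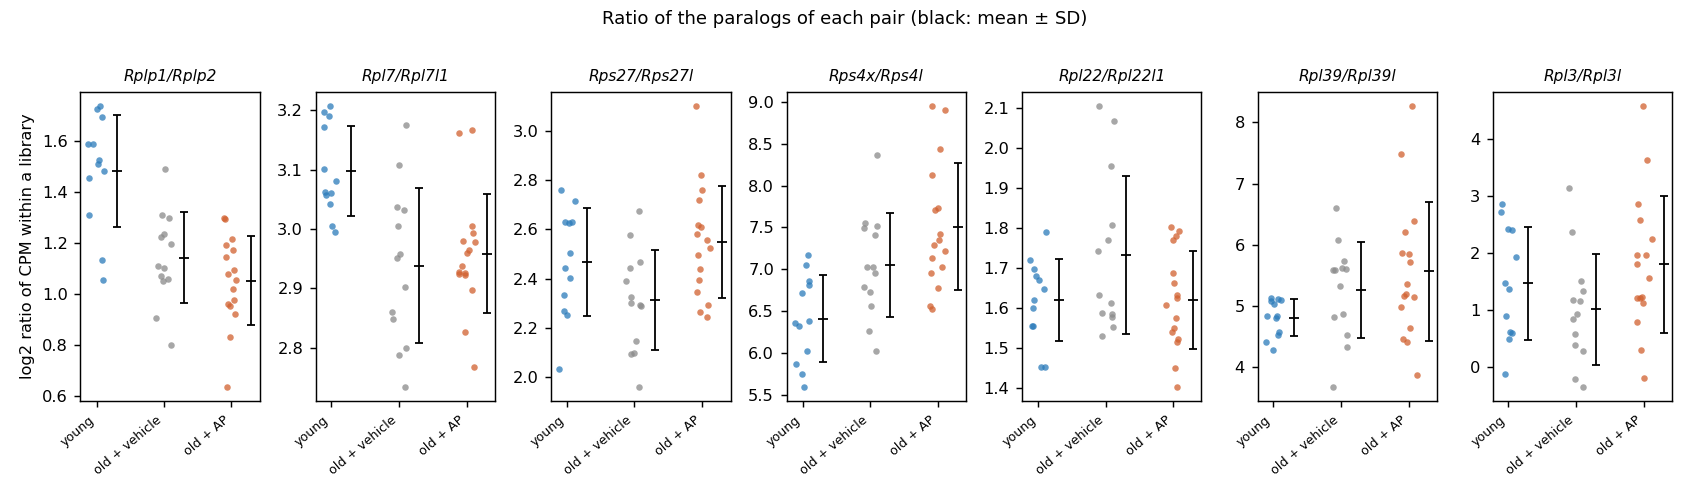
Log2 ratio of CPM of the members of 7 pairs (y axis, 1 panel a pair with its own scale) for each mouse of the 3 groups (x axis), with the mean ± SD in black. The Rplp1 to Rplp2 ratio of all old mice lies below the young median of 1.52, while the Rpl3 to Rpl3l ratio spreads over several log2 units in every group.

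Rpl3l, the striated muscle form of Rpl3, was the most variable tested member and followed Ckm, a muscle gene. It was at 64.9, 144 and 352 CPM in young, at 56.0, 201 and 337 CPM in old + vehicle-treated and at 23.9, 142 and 366 CPM in old + AP-treated mice, a nearly full overlap. Across 41 mice its log2 level correlated with that of Ckm, which encodes muscle creatine kinase, with Pearson's r = 0.95 and Spearman's rho = 0.95 (permutation adjusted p = 1.33e-05 for both, from a p of 1e-05, the smallest that these permutations can give). Without the 2 mice farthest from the median of Ckm, r was 0.93. Within groups r was 0.94 in 12 young, 0.93 in 13 old + vehicle-treated and 0.98 in 16 old + AP-treated mice (permutation adjusted p = 1.33e-05 each), and rho was 0.95, 0.85 and 0.96. Without the 2 farthest mice of each group, r was 0.90, 0.81 and 0.96.

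Relative to the mean of the 10 muscle markers, Rpl3l did not pass in any comparison. The difference on the log2 scale was 0.04 ± 0.11 for old + vehicle-treated against young, -0.07 ± 0.08 between the old groups and -0.03 ± 0.09 for old + AP-treated against young mice (permutation adjusted p = 0.747 for each). Against Ckm alone these were 0.15, 0.11 and 0.26, so the last 2 turned sign, and the last passed (permutation adjusted p = 0.264, 0.264 and 0.0139). The ratio of Rpl3 to Rpl3l ranged from -0.12 to 2.86 on the log2 scale in young mice and differed by 0.79 ± 0.40 between the old groups (permutation adjusted p = 0.136).

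**Figure D4:**
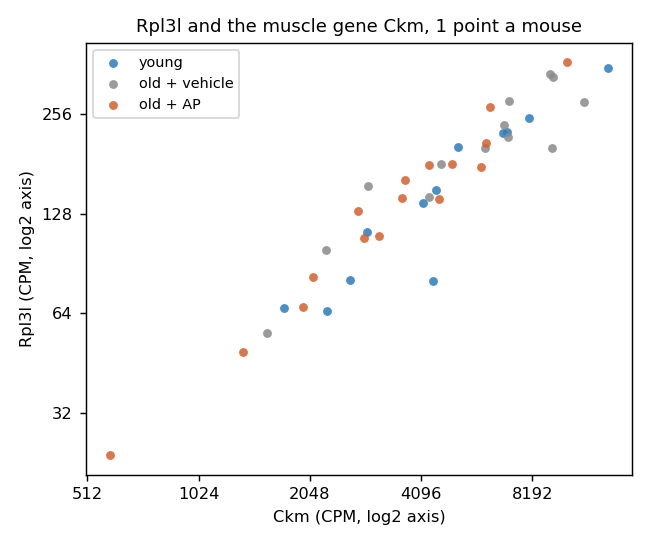
Level of Rpl3l (y axis, CPM on a log2 axis) against Ckm (x axis, CPM on a log2 axis), 1 point for each of 41 mice coloured by group. Both levels rise together in each group (r = 0.95 over all mice), from 23.9 CPM of Rpl3l in the lowest mouse to 366 CPM in the highest.

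Within groups, ribosomal protein genes were steadier than other genes and moved together. The median SD of log2 CPM within groups was 0.163 for the 83 genes and 0.366 for all genes tested. The mean correlation between pairs of ribosomal protein genes, over 41 mice after each group's mean was taken off, was 0.512, beside 0.00232 between pairs of all genes. These values share the libraries and their scaling and are given as a description. The SD of log2 CPM also depends on a gene's level, and no set of genes matched for level was compared. Of the 83 genes, 82 correlated above zero with the mean of the others, and the exception was Rpl3l at -0.302. Rpl7l1 (SD 0.0972), Rpl7 (0.105) and Rpl4 (0.107) were the steadiest, and Rpl3l (0.854), Rpl39l (0.821), Rps4l (0.611), Rpl37a (0.598) and Rpl36 (0.482) the most variable.

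The strength of this co-variation differed between genes. Within groups over 41 mice, Rplp1 correlated over 0.9 with 10 genes, among them Rpl36, Rpl29, Rpl8, Rps21, Rps26 and Rplp2, and Rpl4 correlated over 0.7 with 6 others, Rpl5, Rpl7, Rpl22, Rpl30, Rpl32 and Rps25. The correlation of Rplp1 with Rpl4 was -0.17. Rplp1 and Rpl4 were chosen after their values were seen, and the correlations are a description.

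Fold changes of the ribosomal protein genes varied with base composition across genes. GC content of 1 GENCODE M21 transcript a gene (the lowest-numbered coding one, or the lowest-numbered of any type where none is coding, as for Rps4l) ranged from 40.6% (Rpl22l1) to 62.4% (Rps15) among members, with 60.8% for Rpl36, 57.3% for Rplp1 and 48.2% for Rpl4. Across the 83 genes, Spearman's rho between GC content and log2 fold change was 0.40 for old + vehicle-treated against young, -0.52 between the old groups and -0.26 for old + AP-treated against young mice. Across the 19097 tested genes with a transcript, the values were 0.26, -0.33 and 0.01. For the length of the same transcripts, rho in the same order was 0.10, 0.23 and 0.34 across the 83 genes. Across the 19097 genes it was -0.01, 0.08 and 0.09. The first and second of these comparisons share the vehicle-treated mice. Genes are not independent replicates, and the part of base composition or length in the fold changes of Rplp1 and Rpl36 was not tested.

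**Figure D5:**
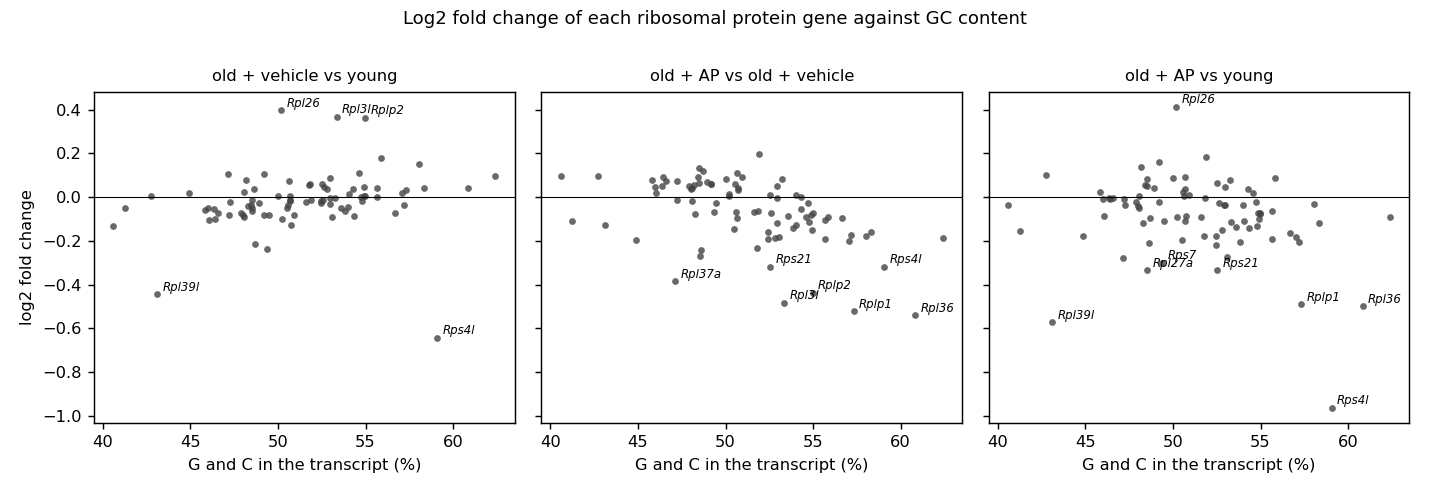
Log2 fold change (y axis) of the 83 tested ribosomal protein genes against the GC content of 1 transcript (x axis, percent) in the 3 comparisons, with names beyond 0.3. GC-rich genes such as Rpl36 and Rplp1 lie lowest in the comparison of the old groups, where rho across genes is -0.52.

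Start sites were read from RefSeq windows on GRCm38.p6, which held 63 of the 84 genes in 75 windows from 250 bases before to 50 bases after the start. In 65 of the 75 windows, the bases from 21 to 40 after the start lay in a GENCODE transcript of the gene, and the other 10 may not mark the start used here. A run of at least 8 pyrimidines touching the start region (5 bases before to 10 after) was in 34.7% of these windows and in 11.3% of all 32841. CCGGAAG, the core of ETS-family sites, on either strand, was in 27 of the 75 member windows and 8.86% of all. AAGATGG, part of the YY1 site, was in 12 of the 75 and 6.34%. TATAAA in the 50 bases before the start was in 1.33% of member windows and 2.63% of all. The 30-base windows below run from 15 bases before the start to 15 bases after it. Capitals show the longest pyrimidine run touching the start region, the first one where runs tie. Windows are given for 4 genes with a long run and for Rps7 and Rpl3l with shorter ones. Where a gene has several windows, the one with the longest run was taken.
Rplp2, chr7:141447636-141447665, + strand: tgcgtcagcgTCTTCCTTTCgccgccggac
Rpl27a, chr7:109519180-109519209, + strand: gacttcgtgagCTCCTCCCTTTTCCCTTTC
Rpl38, chr11:114668565-114668594, + strand: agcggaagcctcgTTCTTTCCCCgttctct
Rps27, chr3:90213634-90213663, - strand: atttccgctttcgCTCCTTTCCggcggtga
Rps7, chr12:28635939-28635968, - strand: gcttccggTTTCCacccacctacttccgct
Rpl3l, chr17:24727811-24727840, + strand: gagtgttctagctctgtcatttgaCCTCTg
The runs of Rplp2 and Rpl38 are 10 bases long, that of Rps27 is 9, and that of Rpl27a is 20 and goes on beyond the window. Those of Rps7 and Rpl3l are 5 bases long. The marked run of Rps7 ends before the start, and that of Rpl3l begins at base 10 after it.

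Genes that act around the ribosome were higher with age wherever they passed the test. Of 17 translation factor and other TOP mRNA genes, 5 were higher and 0 lower in old + vehicle-treated than in young mice, a median log2 fold change of 0.07. Naca, a subunit of the nascent-chain complex, was the one among them past 0.5, at 0.70 ± 0.15 (edgeR adjusted p = 0.000713), and Eef2, the elongation factor for translocation, was at 0.28 ± 0.09. Of 42 ribosome assembly genes, 9 were higher and 0 lower, led by the 40S and 60S assembly factor Rrp12 at 0.73 ± 0.19 and Bysl at 0.46 ± 0.10. Of 18 mTORC1 and Myc genes, 7 were higher and 0 lower, among them Larp1, the TOP mRNA binder, at 0.61 ± 0.08, Tsc2 at 0.40 ± 0.08 and Eif4ebp2 at 0.41 ± 0.08. The background for these counts is 1845 higher and 1891 lower of 19292 genes.

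None of these lists had a gene past the threshold between the old groups. In old + AP-treated against young mice, 5, 9 and 4 genes of the 3 lists were higher and 0 lower, with Larp1 at 0.49 ± 0.08, beside 1766 higher and 1671 lower of all genes tested. The 77 mitochondrial ribosomal protein genes, which serve a separate ribosome, had 3 higher and 0 lower in old + vehicle-treated against young mice, 0 between the old groups and 0 higher with 9 lower in old + AP-treated against young mice.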

How the data were processed

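Library strand is not given in the sources used here. Per the labels and the submitters' processing notes, the authors aligned reads to GRCm38 with TopHat2 (version 2.0.6), counted them with HTSeq and deposited 1 table of raw counts per gene for 41 mice (12 young, 13 old + vehicle-treated, 16 old + AP-treated). The labels give genomic DNA as the molecule, whereas their protocol describes an RNA kit with removal of DNA. Young mice are labelled 6 to 12 months old and the methods say 6 months. How reads that match several places were counted is not given in the sources used here. Over 264 pairs of mice of a group, the squared difference of the counts was at least 33.0 times the counting variance, so no library repeated another of its group (pairs across groups were not compared). Counts were filtered with filterByExpr and fitted with edgeR 4.0.16 in R 4.3.3 (TMM, 3 groups, quasi-likelihood test). Calls needed an adjusted p below 0.05 plus a log2 fold change beyond 0.5 in size. Paralog ratios used log2 CPM with a prior count of 2 and 100000 resamples in Python. Pseudogene copies were found with BLAST 2.17.0 among GENCODE M21 transcripts, and of 8051 pseudogene rows 7769 had a sequence. Adding their counts to the parent was chosen after seeing the data. The scripts were tested on simulated data. Named genes are paralogs, genes with other known roles, the 5 highest and 5 lowest by fold change in each comparison or by level per length, called genes and genes removed by the filter; others are marked. The members and lists were chosen with earlier results of these data known. Each mouse is 1 library and no batch was labelled. Alternatives were DESeq2 1.42.0, its size factors, library totals, no filter, 2-group fits and each mouse left out.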

Additional observations from a re-analysis of the deposited data

How the results depend on the processing

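No paired analysis was possible because mouse numbers are not shared between groups. Counts of genes past the threshold moved with the tool, the scaling, the copies and single mice. For old + vehicle-treated against young mice, 1 gene was called and 0 with no filter, beside 1748 and 1941 of all genes. At the adjusted p alone 4 passed, 7 with DESeq2 and 2 with copy counts added, beside 3736, 4235 and 3735 of all genes. Between the old groups 0 passed, while DESeq2 gave 4 (2 of them called) beside 951 of all genes (204 called), and library totals gave 1 beside 1644 (328 called). For old + AP-treated against young mice, 1 was called, beside 1655 of all genes. The fit of only the 2 groups called 2, beside 1618. At the adjusted p alone 12 passed (2 higher, 10 lower), beside 3437 of all genes. Library totals gave 4 (3 higher, 1 lower), beside 3024 of all genes. Against Ckm alone, the Rpl3l difference between old + AP-treated and young mice turned from -0.03 to 0.26, and that between the old groups from -0.07 to 0.11. With 1 mouse left out, called genes ranged from 0 to 1, 0 to 2 and 1 to 3 in the 3 comparisons in that order, and genes past the adjusted p from 3 to 5, 0 to 4 and 6 to 12. Passing paralog ratios ranged from 6 to 8. The Rpl3l difference from muscle genes ranged from -0.02 to 0.08, -0.12 to -0.03 and -0.09 to 0.01. Library totals moved the median log2 fold change of all genes between the old groups from -0.00 to 0.10. Over all genes, leaving out 1 mouse moved the number past the adjusted p between the old groups from 33 to between 0 and 1600. Against young mice it ran from 3226 to 4096 for old + vehicle-treated and from 2840 to 4053 for old + AP-treated mice. The causes were not tested. The counts hold no read sequence, so parent and copy could not be separated further.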
